A study of Homo sapiens with 18 samples.

Results

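The genes described here are 4 tropomyosins (TPM1, TPM2, TPM3 and TPM4) and 6 septins (SEPTIN2, SEPTIN6, SEPTIN7, SEPTIN8, SEPTIN9 and SEPTIN11). They were picked by gene name, with the lower levels of TPM4 and SEPTIN8 in Ly1 cells after treatment already known, and make up 10 of the 60656 genes in the deposited count table. Both families encode proteins that assemble into filaments of the cytoskeleton. Tropomyosins are coiled-coil dimers that lie along actin filaments and set which myosins and severing factors reach them. Septins are GTP-binding proteins that join end to end into hetero-oligomers and filaments at the cell cortex and at the cleavage furrow of dividing cells. In T lymphocytes, septins are known to stiffen the cell cortex.

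RNA was sequenced from 2 established human lines of DLBCL, the most common aggressive lymphoma of B cells (diffuse large B cell lymphoma). U2932 is labelled ABC, the activated B cell-like class, and Ly1 is labelled GCB, the germinal centre B cell-like class. Cells of each line received SGC-GAK-1, a small-molecule inhibitor of the cyclin G-associated kinase GAK, at 1 µM for 12 h or for 24 h, or DMSO, the solvent. Each of the 6 groups had 3 libraries, numbered as replicates 1, 2 and 3, with total counts of 22549853 to 29386802. The labels give no time for the DMSO libraries, so the 3 of a line served both treated times and the changes at 12 h and at 24 h share them. Each line is a single cell line, U2932 was grown in RPMI 1640 medium and Ly1 in IMDM, so line, class and medium cannot be told apart. Whether replicates came from separate cultures is not stated, so the p-values measure the spread between these libraries, which may be technical.

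Levels are in CPM, counts relative to library size after TMM normalization over the 18 libraries, and means carry the SD of 3 libraries. Changes are log2 fold changes from edgeR's quasi-likelihood fit over all genes. The test reports no standard error (SE), so the SE was derived as the absolute change over the square root of the test's F statistic. Adjusted p-values come from the same fit with Benjamini-Hochberg adjustment, where an adjusted p under 0.05 counts as called. All 10 genes passed the filter on low counts in Ly1 and over both lines, and 9 did in U2932, where TPM2 did not. The values of Ly1 at 24 h and in DMSO chose these genes, so that comparison is a description with no test for any of them. For TPM4 and SEPTIN8 no test is given in any comparison that uses Ly1 libraries.

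The B cell markers MS4A1, CD79A, CD79B and PAX5 were detected in every library. PAX5, for example, had 426 to 544 CPM in U2932 and 435 to 575 CPM in Ly1, and CD79A had 524 to 686 CPM in U2932 and 831 to 1288 CPM in Ly1. The platelet markers PF4, PPBP and GP9 were at 0 in all libraries, and the T cell and myeloid lists stayed at or under 2.17 CPM in sum. The replicate 3 libraries stood apart, though little in Ly1 at 12 h. Counts of replicates 1 and 2 of a group differed with a chi-square per degree of freedom of 3.49 to 9.57, and pairs with replicate 3 with 9.73 to 103. In Ly1 at 12 h it was 8.72 between replicates 1 and 2, and 14.8 and 9.73 for the pairs with replicate 3. Values without the replicate 3 libraries are given beside the results that they move.

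TPM4 (ENSG00000167460.17, chr19:16067021-16103002), a nonmuscle tropomyosin found in most cell types and abundant in platelets, was the tropomyosin that stood farthest below DMSO in Ly1. It has 3 start sites in RefSeq (GRCh38.p14), on the plus strand, and the promoters of the first and second are shown for that reason. Each window runs from 250 bases before to 50 bases after the start site. Capitals mark a CArG box, the binding motif of serum response factor, at position -173 of the first window, GC boxes (GGGCGG, the motif of SP1-type factors) in both, and an E-box (CANNTG) in the second.
TPM4 chr19:16067288-16067587: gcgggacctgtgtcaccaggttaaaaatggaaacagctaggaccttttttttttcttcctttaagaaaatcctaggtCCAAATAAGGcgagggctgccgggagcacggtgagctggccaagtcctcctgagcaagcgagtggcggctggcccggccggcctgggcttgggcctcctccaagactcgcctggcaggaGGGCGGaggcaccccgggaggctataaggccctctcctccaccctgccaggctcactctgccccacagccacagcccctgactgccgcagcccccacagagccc
TPM4 chr19:16076245-16076544: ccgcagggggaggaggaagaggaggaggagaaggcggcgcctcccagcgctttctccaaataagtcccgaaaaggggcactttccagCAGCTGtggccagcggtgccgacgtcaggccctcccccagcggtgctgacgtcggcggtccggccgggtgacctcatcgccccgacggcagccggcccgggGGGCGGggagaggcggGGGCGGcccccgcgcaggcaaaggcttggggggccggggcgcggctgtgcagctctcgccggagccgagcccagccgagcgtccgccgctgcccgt

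In Ly1, TPM4 stood at 101, 99.5 and 114 CPM in replicates 1, 2 and 3 at 12 h. At 24 h it stood at 75.6, 75.6 and 95.5 CPM, and in DMSO at 147, 140.4 and 166 CPM. The 3 groups did not overlap, with DMSO highest and 24 h lowest. The change at 24 h, which chose the gene, was -0.88 ± 0.12 (SE), or 0.544 times the DMSO level. At 12 h it was -0.53 ± 0.12, or 0.691 times DMSO, and the 24 h libraries were lower than the 12 h libraries by -0.35 ± 0.12. Within replicate numbers 1, 2 and 3 the change was -0.54, -0.50 and -0.54 at 12 h and -0.96, -0.89 and -0.79 at 24 h. Replicate 3 was thus as far below its DMSO library as the others at 12 h and a little less far at 24 h, although its own level was the highest of each group. It was -0.92 ± 0.06 at 24 h and -0.52 ± 0.06 at 12 h without the replicate 3 libraries. As each library was left out in turn it stayed at or below -0.80 at 24 h, and between -0.60 and -0.45 at 12 h.

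In U2932, whose libraries took no part in the choice of genes, TPM4 did not pass the test at 12 h, and at 24 h it passed with replicate number as a block or without the replicate 3 libraries, but not in the fit of all 9 libraries without a block. It stood at 157, 155 and 173 CPM at 12 h, 124, 126 and 143 CPM at 24 h, and 141, 148 and 177 CPM in DMSO. The 24 h libraries overlapped with those of DMSO, where replicate 3 was highest in every group, but lay below the 12 h libraries with no overlap. At 24 h the change was -0.22 ± 0.09 (edgeR, adjusted p = 0.401), lower in 3 of 3 replicate numbers, by -0.19, -0.23 and -0.31. Replicate numbers paired these libraries by the rule on correlations used here (0.336 to 0.564), although only 4 of 6 libraries were closest to their own number. With replicate number as a block the change was -0.22 ± 0.06 (edgeR, adjusted p = 0.0482), a fall under the block. Without the replicate 3 libraries it was -0.19 ± 0.05 (edgeR, adjusted p = 0.0180). Between 24 h and 12 h it was -0.29 ± 0.09 (adjusted p = 0.479), -0.29 ± 0.06 with the block (adjusted p = 0.0371), and -0.31 ± 0.05 without the replicate 3 libraries (adjusted p = 0.000393). At 12 h it was 0.06 ± 0.09 (adjusted p = 0.999).

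**Figure D1:**
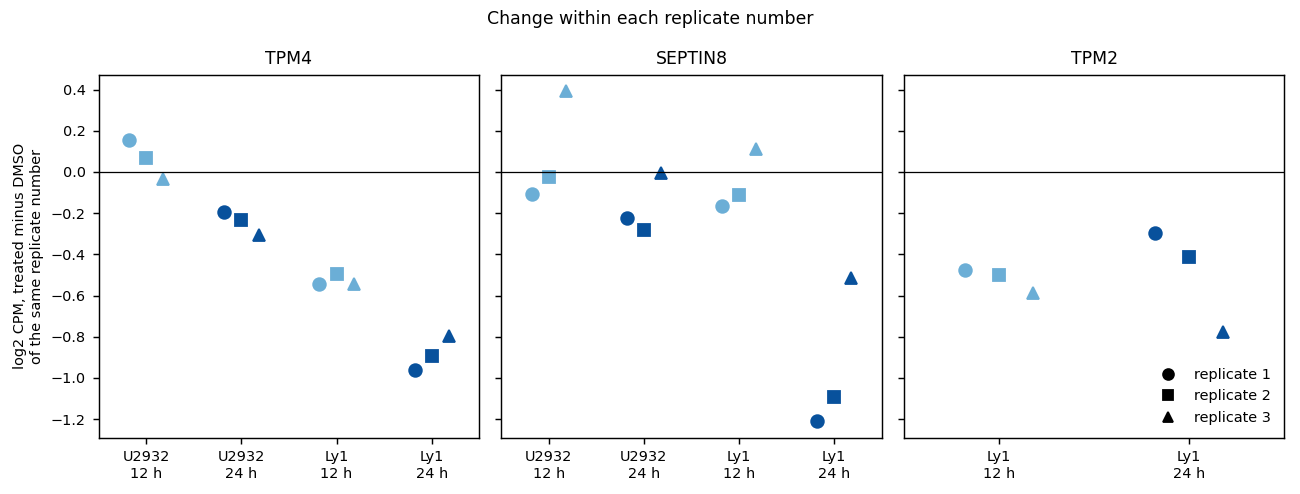
Change in log2 CPM between a treated library and the DMSO library of the same replicate number (vertical axis), for TPM4, SEPTIN8 and TPM2, at 12 h (light blue) and 24 h (dark blue) of SGC-GAK-1. Circles, squares and triangles are replicates 1, 2 and 3. TPM4 lies below 0 in all 6 Ly1 points and in 3 of 3 U2932 points at 24 h, and SEPTIN8 in Ly1 runs between -1.21 and -0.51 at 24 h. TPM2 is shown for Ly1 alone, since it had 0 to 3 counts per library in U2932.

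TPM2 (ENSG00000198467.16, chr9:35681992-35690056), the beta tropomyosin of skeletal and smooth muscle, set the lines apart. U2932 DMSO libraries held 2, 3 and 0 counts of it and Ly1 DMSO libraries 5079, 4371 and 2967. Pooled over the DMSO libraries, the U2932 level was 0.0402% of that in Ly1, with an exact 95% interval of 0.0131 to 0.0939% that covers counting error only. A count of 0 in U2932 DMSO replicate 3 allows up to 3 counts, or 0.115 CPM. The difference was called by edgeR (adjusted p = 3.46e-13), with no overlap between the libraries, and its fitted size of -11.17 ± 0.41 depends on the prior count used for near-0 groups. All 9 U2932 libraries together held 18 counts, with 2 or 3 in each treated library, so a change with treatment was not measurable there. Of the 10 genes it differed most between the lines, and the upstream one of its 2 RefSeq promoters (GRCh38.p14, minus strand) is shown for that reason. The window runs from 250 bases before to 50 after the start site, with E-boxes (CAGCTG) and GC boxes in capitals.
TPM2 chr9:35690007-35690306: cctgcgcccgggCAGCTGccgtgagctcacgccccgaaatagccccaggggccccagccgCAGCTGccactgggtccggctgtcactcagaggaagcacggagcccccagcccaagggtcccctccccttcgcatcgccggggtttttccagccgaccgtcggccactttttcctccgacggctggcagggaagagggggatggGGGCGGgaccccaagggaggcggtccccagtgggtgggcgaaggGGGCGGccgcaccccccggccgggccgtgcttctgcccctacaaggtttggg

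In Ly1, TPM2 stood at 127, 125 and 85.6 CPM at 12 h. It stood at 144, 133 and 74.8 CPM at 24 h, and at 176, 177 and 128 CPM in DMSO. Replicate 3 was lowest in all 3 groups, by -0.56, -0.88 and -0.46 on the log2 scale at 12 h, at 24 h and in DMSO, relative to the mean of replicates 1 and 2. At 12 h the libraries lay below those of DMSO with no overlap, and the change was -0.52 ± 0.23 (edgeR, unadjusted p = 0.0499, adjusted p = 0.815), lower in 3 of 3 replicate numbers. Without the replicate 3 libraries it was -0.49 ± 0.06 (edgeR, adjusted p = 6.84e-07), and with replicate number as a block -0.53 ± 0.10 (adjusted p = 0.145). The 24 h value, a description, was -0.45 ± 0.23, with overlap between the groups, and -0.30, -0.41 and -0.78 within replicate numbers 1, 2 and 3. It lay between -0.62 and -0.22 as each library was left out, and at -0.35 ± 0.06 without the replicate 3 libraries.

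TPM3 (ENSG00000143549.21, chr1:154155304-154194648), which makes slow-muscle and widely used nonmuscle tropomyosins, and TPM1 (ENSG00000140416.23, chr15:63042632-63071915), the alpha tropomyosin of striated muscle with many nonmuscle isoforms, lay near their DMSO levels. TPM3 had 544.6, 534 and 506 CPM at 12 h, 487, 472 and 469 CPM at 24 h, and 495, 525 and 496 CPM in DMSO in U2932. Its 24 h libraries were the lowest of the line, below both other groups with no overlap, but the change of -0.06 ± 0.07 from DMSO did not pass (edgeR, adjusted p = 0.768), nor did the -0.13 ± 0.07 from 12 h (adjusted p = 0.645). In Ly1 the 24 h value was 0.07 ± 0.08 as a description, and the 12 h value 0.08 ± 0.08 (adjusted p = 0.999). TPM1 was the rarest tropomyosin but for TPM2 in U2932, at 3.33 to 5.59 CPM per library in U2932 and 5.07 to 7.84 CPM in Ly1. Its changes ranged from -0.10 to 0.18 in both lines and at both times against DMSO, 0 of the 3 that were tested passed (lowest adjusted p 0.852), and replicate 3 was the highest library in 6 of 6 groups.

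SEPTIN8 (ENSG00000164402.14, chr5:132750819-132807241) belongs to the SEPTIN6 group of septins, whose members can take the same place in the hetero-oligomer. Of the 6 septins of the set it stood farthest below DMSO in Ly1 at 24 h. The promoter of 1 of its 2 RefSeq start sites (GRCh38.p14, minus strand) is shown for that reason. An E-box and 5 GC boxes are in capitals. A pair of these GC boxes, on opposite strands, adjoin near the start site.
SEPTIN8 chr5:132777190-132777489: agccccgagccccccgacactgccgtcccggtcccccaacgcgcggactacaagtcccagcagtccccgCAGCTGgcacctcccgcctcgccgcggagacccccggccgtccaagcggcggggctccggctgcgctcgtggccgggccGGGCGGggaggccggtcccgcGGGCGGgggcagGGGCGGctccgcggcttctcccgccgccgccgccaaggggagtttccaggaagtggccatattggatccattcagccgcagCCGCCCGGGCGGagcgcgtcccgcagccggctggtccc

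SEPTIN8 was a low gene in Ly1, at 12.5, 12.7 and 9.83 CPM at 12 h. At 24 h it stood at 6.02, 6.43 and 6.34 CPM, and in DMSO at 14.0, 13.8 and 9.09 CPM. The 24 h libraries lay below both other groups with no overlap, while 12 h and DMSO overlapped. These levels rest on 131 to 159 counts per library at 24 h and 210 to 404 in DMSO. The change that chose it was -0.97 ± 0.18 at 24 h, or 0.510 times DMSO, against -0.08 ± 0.17 at 12 h, and the 24 h libraries were lower than the 12 h libraries by -0.89 ± 0.18. Within replicate numbers 1, 2 and 3 it was -1.21, -1.09 and -0.51 at 24 h, and -0.17, -0.11 and 0.11 at 12 h. Replicate 3 had the lowest DMSO library, while the 24 h libraries were alike. Without the replicate 3 libraries the 24 h value was -1.15 ± 0.12.

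In U2932, SEPTIN8 stood at 18.9, 19.0 and 26.1 CPM at 12 h, 17.4, 15.9 and 19.8 CPM at 24 h, and 20.3, 19.3 and 19.8 CPM in DMSO. The 24 h libraries overlapped with both other groups. The change at 24 h was -0.14 ± 0.13 (edgeR, adjusted p = 0.723), lower in 3 of 3 replicate numbers but by less than 0.01 in replicate 3. At 12 h it was 0.10 ± 0.13 (adjusted p = 0.999), and between 24 h and 12 h -0.25 ± 0.13 (adjusted p = 0.652).

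SEPTIN6 (ENSG00000125354.23, chrX:119615724-119693370) and SEPTIN11 (ENSG00000138758.11, chr4:76949703-77040384) are the other genes of this set that belong to the SEPTIN6 group, and their libraries followed another order. In U2932, SEPTIN6 had 236, 248 and 198 CPM at 12 h, 255, 259 and 238 CPM at 24 h, and 225, 239.5 and 187 CPM in DMSO. The 24 h libraries were higher than DMSO in 3 of 3 replicate numbers, by 0.18, 0.11 and 0.35, and the groups overlapped, with replicate 3 lowest in each. The change was 0.23 ± 0.12 (edgeR, adjusted p = 0.492), and 0.24 ± 0.06 with replicate number as a block (adjusted p = 0.0464), a rise under the block. Without the replicate 3 libraries it was 0.16 ± 0.05 (edgeR, adjusted p = 0.0446). In Ly1, SEPTIN6 at 24 h (271, 269 and 252 CPM) lay above 12 h (237, 243 and 245 CPM) with no overlap, but the difference of 0.13 ± 0.09 was not called (adjusted p = 0.570). Without the replicate 3 libraries it was 0.17 ± 0.05 (adjusted p = 0.00944).

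SEPTIN11 in Ly1 had 36.4, 44.0 and 39.4 CPM at 12 h, 26.5, 28.6 and 40.2 CPM at 24 h, and 39.3, 34.5 and 28.3 CPM in DMSO. Replicate 3 was the highest library at 24 h and the lowest in DMSO, so the 24 h value, a description, was -0.57 and -0.27 in replicates 1 and 2 and 0.50 in replicate 3. Between 24 h and 12 h the difference was -0.33 ± 0.17 (edgeR, adjusted p = 0.489), and -0.54 ± 0.09 without the replicate 3 libraries (adjusted p = 2.57e-05). In U2932 it did not pass at 12 h (0.13 ± 0.09, adjusted p = 0.999) or at 24 h (-0.04 ± 0.09, adjusted p = 0.918).

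SEPTIN9 (ENSG00000184640.19, chr17:77280569-77500596), a part of the hetero-octamer that also binds microtubules and actin, was the highest of the 10 genes in Ly1. It had 2102, 2082 and 1949 CPM at 12 h, 1780.0, 1825 and 1913 CPM at 24 h, and 1815, 1877 and 1940.0 CPM in DMSO. The 12 h libraries lay above both other groups with no overlap. The change at 12 h was 0.12 ± 0.09 (edgeR, adjusted p = 0.999), and 0.18 ± 0.05 without the replicate 3 libraries (adjusted p = 0.0175). In U2932 at 24 h, replicates 1 and 2 were lower than DMSO by -0.26 and -0.23 and replicate 3 higher by 0.20, with a change of -0.07 ± 0.09 (adjusted p = 0.812), and of -0.22 ± 0.05 without the replicate 3 libraries (adjusted p = 0.00693).

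SEPTIN7 (ENSG00000122545.20, chr7:35800932-35907105), the one member of its group and a part of nearly every septin oligomer, and SEPTIN2 (ENSG00000168385.18, chr2:241315100-241354027), a ubiquitous septin needed for cytokinesis, had narrow ranges. SEPTIN7 stayed between 368 and 413 CPM and SEPTIN2 between 233.5 and 274 CPM in the 9 U2932 libraries. In Ly1 they ran from 374.5 to 407 CPM and from 327 to 371 CPM. SEPTIN7 libraries at 12 h lay above DMSO with no overlap in both lines, by 0.07 ± 0.06 in U2932 and 0.06 ± 0.08 in Ly1, and neither was called (adjusted p = 0.999 in each, edgeR). SEPTIN2 lay at -0.03 to 0.04 against DMSO over both lines and times, and edgeR called 0 of the 3 tested values.

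**Figure D2:**
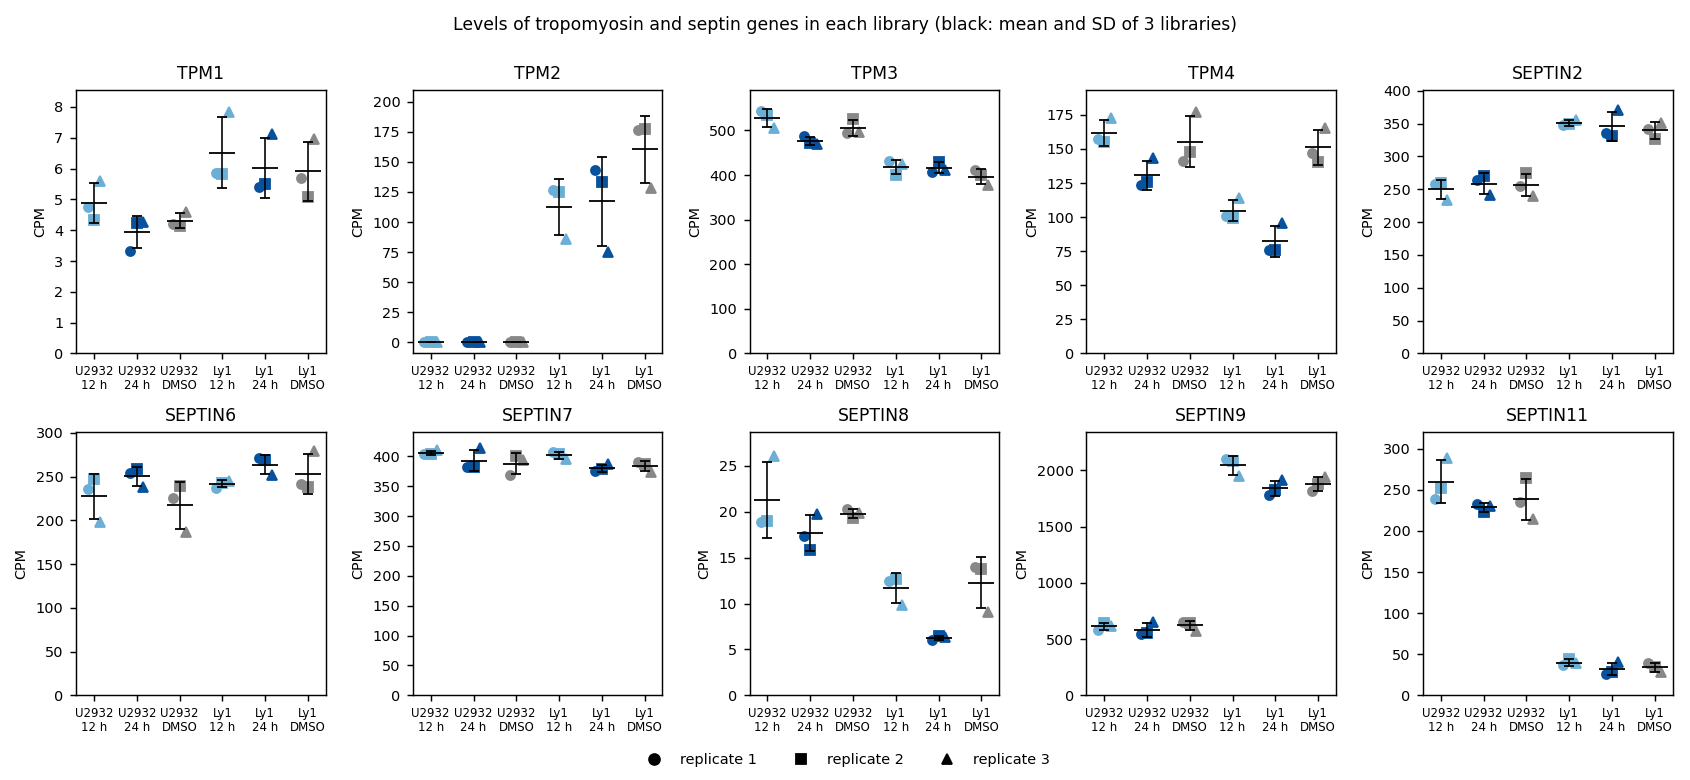
CPM of each gene in each library (vertical axes, 1 panel per gene), in U2932 and then Ly1, with 12 h (light blue), 24 h (dark blue) and DMSO (grey) in each. Circles, squares and triangles are replicates 1, 2 and 3, and black marks give the mean and SD of 3 libraries. In Ly1, TPM4 is lower at 12 h and lower still at 24 h than in DMSO, without overlap, and SEPTIN8 is lowest at 24 h, while SEPTIN7 and SEPTIN2 span narrow ranges.

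Counted over the set, few of these changes were called, and calls over all genes were few as well. In U2932 edgeR called 0 of 9 at 12 h, beside 0% of all genes tested. Of the 9, 0 had an unadjusted p under 0.05, and 0 were called by DESeq2 (0.106% of all genes) and 0 by limma voom (0%). SEPTIN7, which is 1 of 9, lay higher with no overlap, beside 8.36% of all genes (3.77% higher and 4.60% lower). At 24 h it called 0 of 9 (0% of all genes), while 1 had an unadjusted p under 0.05, and 0 were called by DESeq2 (1.04%) and by limma voom (0%). TPM3, again 1 of 9, lay lower with no overlap, beside 18.8% of all genes (7.95% higher and 10.8% lower). With the replicate block the count at 24 h was 2 of 9, TPM4 lower and SEPTIN6 higher, beside 4.41% of all genes, and without the replicate 3 libraries 3 of 9, with SEPTIN9 lower in addition, beside 9.01%. Between 24 h and 12 h edgeR called 0 of 9 (0%), with 1 at an unadjusted p under 0.05, 0 by DESeq2 (0.489%) and 0 by limma voom (0%). The block gave 1, TPM4, beside 0.997%. In that comparison TPM1, TPM3, TPM4 and SEPTIN11, which is 4 of 9, lay lower with no overlap, beside 19.4% of all genes (8.84% higher and 10.6% lower).

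In Ly1 the counts of calls are given for the 8 genes other than TPM4 and SEPTIN8. At 12 h edgeR called 0 of 8, beside 0% in the whole table, and 1, TPM2, had an unadjusted p under 0.05. DESeq2 called 0 of 8, beside 0.671%, and limma voom 0 (0%). Of all 10 genes, 4 did not overlap between 12 h and DMSO (TPM2 and TPM4 lower, SEPTIN7 and SEPTIN9 higher), beside 15.2% of all genes (8.15% higher and 7.03% lower). Between 24 h and 12 h edgeR called 0 of 8 (0%), with 0 at an unadjusted p under 0.05, and DESeq2 called 0 (0.0357%) and limma voom 0 (0%). In it 5 of 10 did not overlap, TPM4, SEPTIN7, SEPTIN8 and SEPTIN9 lower and SEPTIN6 higher, beside 16.7% of all genes (8.41% higher and 8.32% lower). Without 24 h replicate 3 alone edgeR called 1 of the 8, SEPTIN11, beside 19.5%, and without all replicate 3 libraries 3 of the 8, SEPTIN6, SEPTIN9 and SEPTIN11, beside 41.7%.

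At 24 h against DMSO, the comparison that chose the set, 2 of 10 were past the threshold, both lower, beside 0.550% of all genes in either direction (0.343% higher and 0.207% lower). The same 2 were the members with no overlap, beside 15.9% of all genes (8.13% higher and 7.80% lower). The other 8 lay between -0.45 and 0.07. The count went to 0 when replicate 1 or 2 of either group was left out and with library totals in place of TMM factors, with only the compared groups in the fit, or with a filter at a mean of 5 CPM. In these settings 0% to 0.0106% of all genes were past the threshold. The fitted values of TPM4 and SEPTIN8 stayed at or below -0.80 in all of these.

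**Figure D3:**
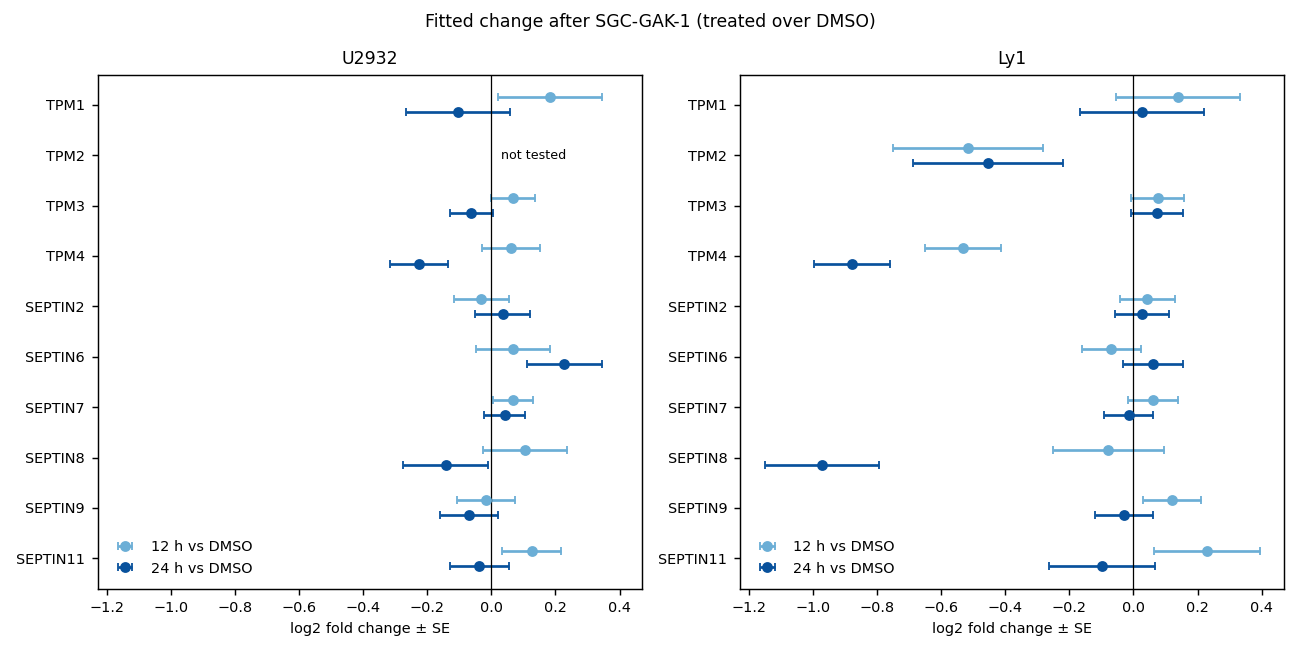
Fitted log2 fold change of each gene after SGC-GAK-1 over DMSO (horizontal axis, with SE as bars), at 12 h (light blue) and 24 h (dark blue), in U2932 and in Ly1. In Ly1 TPM4 and SEPTIN8 lie at -0.88 and -0.97 at 24 h and TPM2 at -0.45, apart from the other genes, and in U2932 every value lies between -0.22 and 0.23.

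The next comparison asks whether the lines differed in response, as the U2932 change minus the Ly1 change. At 12 h the difference was 0.59 ± 0.16 for TPM4 and 0.18 ± 0.23 for SEPTIN8, and at 24 h 0.63 ± 0.16 and 0.81 ± 0.23, all as descriptions, because Ly1 libraries chose both genes. These positive values mean that the level after treatment was lower relative to DMSO in Ly1. The same differences without replicate 3 were 0.66 ± 0.08 and 0.10 ± 0.14 at 12 h, and 0.76 ± 0.08 and 0.95 ± 0.15 at 24 h. Of the other 8 genes at 12 h, edgeR called 0, beside 0% of the table, DESeq2 0 (0.00618%) and limma voom 0 (0%), and by edgeR 0 had an unadjusted p under 0.05. Their lowest adjusted p was 0.9999. Leaving out the replicate 3 libraries, 1 of the 8 was called, SEPTIN9 (-0.24 ± 0.07, edgeR, adjusted p = 0.0407), beside 4.50%. At 24 h the difference contains the Ly1 change that chose the genes, so it has no test, and the other 8 lay between -0.16 and 0.74, with edgeR past the threshold for 0% of all genes.

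Between the lines in DMSO, differences were common in the set and in the whole table. Of the 8 genes that could be tested here, edgeR called 6, 2 higher in U2932 and 4 lower, beside 63.0% of all genes (33.1% higher and 29.9% lower). The libraries of 7 of all 10 did not overlap, beside 65.4% of all genes (34.5% higher and 30.9% lower). SEPTIN11, SEPTIN9 and TPM2 differed most.

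SEPTIN11 stood at 236, 265 and 215 CPM in U2932 DMSO, against 39.3, 34.5 and 28.3 CPM in Ly1 DMSO. It was 7 times as high in U2932, a difference of 2.81 ± 0.15 (edgeR, adjusted p = 1.37e-11), with no overlap. Of the 6 septins of the set, it differed most between the lines, and its RefSeq promoter (GRCh38.p14, plus strand) is shown for that reason. The window runs from 250 bases before to 50 after the start site, with an E-box (CAGATG) and 3 GC boxes in capitals.
SEPTIN11 chr4:76949502-76949801: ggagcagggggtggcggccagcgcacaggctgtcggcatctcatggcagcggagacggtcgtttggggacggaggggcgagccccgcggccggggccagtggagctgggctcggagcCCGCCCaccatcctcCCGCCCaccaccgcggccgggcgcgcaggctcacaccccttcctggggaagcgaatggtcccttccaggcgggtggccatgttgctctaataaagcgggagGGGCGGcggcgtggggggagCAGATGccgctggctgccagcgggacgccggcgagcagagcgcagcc

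SEPTIN9 went the other way, with 648, 645 and 570.5 CPM in U2932 DMSO against 1815, 1877 and 1940.0 CPM in Ly1 DMSO, a difference of -1.60 ± 0.09 (edgeR, adjusted p = 4.13e-11). SEPTIN2 was lower in U2932, at 256 ± 17 against 339.7 ± 12.4 CPM in Ly1 (-0.41 ± 0.08, adjusted p = 0.000329). TPM3 was higher in U2932, at 505 ± 17.03 against 396 ± 16.9 CPM in Ly1 (0.35 ± 0.07, adjusted p = 0.000437). The libraries of the lines did not overlap for SEPTIN9, SEPTIN2 or TPM3.

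TPM1 stood at 4.31 ± 0.250 CPM in U2932 DMSO against 5.91 ± 0.970 CPM in Ly1 DMSO, with no overlap. Its difference of -0.45 ± 0.18 was called (edgeR, adjusted p = 0.0383), but the call was lost with DESeq2's size factors (0.0527) and in several other settings. Without Ly1 DMSO replicate 3 the difference was -0.29 (adjusted p = 0.199), and without all replicate 3 libraries -0.38 ± 0.16 (adjusted p = 0.0360). SEPTIN6 missed the threshold at 217 ± 27.2 CPM in U2932 against 253 ± 22.9 CPM in Ly1 (-0.22 ± 0.10, adjusted p = 0.0717), with overlap, and without the replicate 3 libraries the difference was -0.05 ± 0.05 (adjusted p = 0.391). SEPTIN7 was at 388 ± 17.1 CPM in U2932 against 384 ± 8.52 CPM in Ly1, with a difference of 0.01 ± 0.07 (adjusted p = 0.880). As descriptions, SEPTIN8 was higher in U2932 by 0.69 ± 0.16 (0.51 ± 0.09 without the replicate 3 libraries), with no overlap, and TPM4 lay at 0.04 ± 0.11, with overlap.

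Among the genes of this set that belong to the SEPTIN6 group of septins, the levels stood as follows. Per kilobase of merged exons, which allows genes to be compared, the DMSO levels in U2932 were 34.8 ± 4.35 CPM per kb for SEPTIN6, 24.4 ± 2.56 for SEPTIN11 and 2.57 ± 0.0658 for SEPTIN8. In Ly1 they were 40.5 ± 3.67 CPM per kb for SEPTIN6, 3.47 ± 0.564 for SEPTIN11 and 1.60 ± 0.360 for SEPTIN8. In each line SEPTIN6 stood above SEPTIN11 and SEPTIN11 above SEPTIN8, with no overlap between the genes.

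Over all 10 genes in U2932, the order per kilobase was TPM3 (60.2 ± 2.03 CPM per kb), SEPTIN9 (48.4 ± 3.42), then SEPTIN7, SEPTIN6 and SEPTIN2 between 34.7 and 35.6 with overlap, SEPTIN11, TPM4 (18 ± 2.19), SEPTIN8, TPM1 (0.335 ± 0.0194) and TPM2 (0.0201 ± 0.0187). In Ly1 it was SEPTIN9 (146 ± 4.87 CPM per kb), then TPM2 (49.5 ± 8.58), TPM3 (47.2 ± 2.01), SEPTIN2 (46.0 ± 1.68) and SEPTIN6 with overlap of each with the next, SEPTIN7 (35.2 ± 0.781), TPM4 (17.5 ± 1.52), SEPTIN11, SEPTIN8 and TPM1 (0.459 ± 0.0754). The remaining neighbours in each line did not overlap. Merged exons count every annotated isoform, so the value understates a gene whose main isoform is short, and gene counts do not separate the muscle and nonmuscle isoforms of a tropomyosin.

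**Figure D4:**
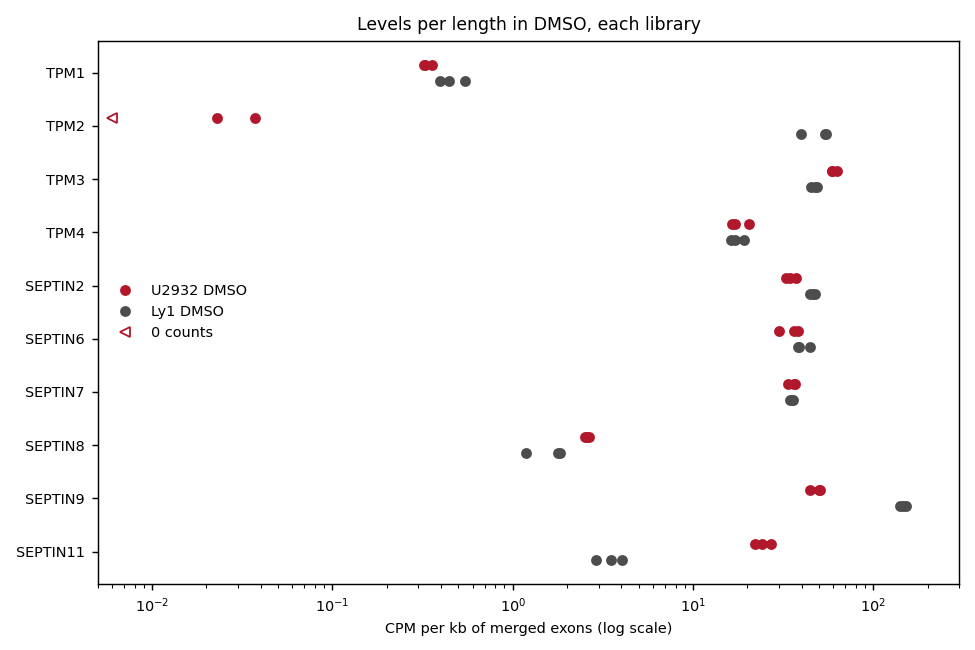
DMSO level of each gene in CPM per kilobase of merged exons (horizontal axis, log scale), 1 point per library, with U2932 in red above Ly1 in grey. The open triangle marks the U2932 library with 0 counts of TPM2. TPM2 and SEPTIN9 lie far lower and SEPTIN11 far higher in U2932 than in Ly1, and TPM4 and SEPTIN7 overlap.

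Markers of other cell types that use tropomyosins also differed between the lines. The 8 fibroblast and smooth muscle markers summed to 26.7 to 66.3 CPM in U2932 libraries and 0.730 to 3.64 CPM in Ly1 libraries. Nearly all of the U2932 sum was MYH11, smooth muscle myosin heavy chain, at 22.2 to 62.3 CPM, while COL1A1 was at 0.903 to 1.60 CPM and DCN at 1.04 to 2.13 CPM. In Ly1 COL1A1 and DCN were at most at 0.0411 and 0.0438 CPM. ACTA2 ran from 0.511 to 1.79 CPM in U2932 and from 0.416 to 3.33 CPM in Ly1, and COL1A2, COL3A1, DES and PDGFRB stayed at or under 0.125 CPM in every library. The 4 epithelial markers summed to 27.0 to 35.7 CPM in U2932 and 3.49 to 5.83 CPM in Ly1, nearly all of it EPCAM. TPM2 was high in the line with the lower sums, and the part of these markers in the differences was not tested. In bulk RNA, fewer cells with a transcript and less of it per cell cannot be told apart.

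Other genes of the pathways were followed as 3 lists. The lists were chosen with earlier results of these data known, so values that use the Ly1 change at 24 h are descriptions. Of the 7 other septins, SEPTIN10 and SEPTIN14 were at 0 in every library, and SEPTIN5 and SEPTIN12 had at most 2 counts in a library. Of the 3 tested across lines, 2 were called higher in U2932 and 1 lower by edgeR, beside 63.0% of all genes (33.1% higher and 29.9% lower), with a median of 2.34 beside 0.02 over all genes. SEPTIN1, a septin of lymphocytes, had 20.8 ± 3.59 CPM in U2932 DMSO against 57.5 ± 14.0 CPM in Ly1 DMSO (-1.47 ± 0.17, edgeR, adjusted p = 5.26e-07). SEPTIN3, a septin best known from neurons, had 3.96 ± 1.36 CPM in U2932 against 0.775 ± 0.331 CPM in Ly1 (2.34 ± 0.38, adjusted p = 2.65e-05). SEPTIN4 was called higher in U2932 by 3.40 (edgeR, adjusted p = 0.00396), on 5 to 11 counts per library, against 0 to 2 in Ly1. In the 6 comparisons within lines edgeR called 0 of the 2 tested in Ly1 and of the 3 tested in U2932. As a description, SEPTIN3 in Ly1 lay at -1.14 ± 0.44 at 24 h against DMSO, farther below than SEPTIN8. That value rests on 8 to 9 counts per library at 24 h and 10 to 27 in DMSO.

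Septin partners are the Borg proteins (CDC42EP1 to CDC42EP5), which bind septins under the control of CDC42, with CDC42 itself and the furrow scaffold ANLN (anillin). Of 7 genes, 4 were tested across lines, where edgeR called 2 higher in U2932 and 1 lower, beside the same 63.0% of all genes, with a median of 0.54 beside 0.02 over all genes. CDC42EP3 had 31.1 ± 3.49 CPM in U2932 DMSO against 15.2 ± 0.311 CPM in Ly1 DMSO (1.03 ± 0.11, edgeR, adjusted p = 2.85e-07). ANLN had 41.2 ± 18.2 CPM in U2932 against 97.4 ± 16.1 CPM in Ly1 (-1.24 ± 0.24, adjusted p = 0.000316), with U2932 replicate 3 at 20.2 CPM, below the others, and the difference lay between -1.44 and -0.77 over 15 other settings. In Ly1 edgeR called 0 of the 3 tested at 12 h or at 24 h against DMSO, while ANLN stood at 0.46 ± 0.12 (adjusted p = 0.384) and 0.48 ± 0.12 (adjusted p = 0.110), and DESeq2 called 1 of 3 at each time, beside 0.671% of all genes at 12 h and 4.09% at 24 h. CDC42EP4 was called higher in U2932 on 11 to 14 counts per library, against 1 to 5 in Ly1.

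Actin and tropomyosin partners were 41 genes for actins, tropomodulins, nonmuscle myosins, actinins, calponins and the SRF and MRTF factors that control many of them. In Ly1 at 24 h, 1 of the 34 tested was past the threshold by edgeR, lower, beside 0.550% of all genes (0.207% lower). The median was -0.09 beside -0.01 over all genes, with 13 above 0 and 21 below. The gene past the threshold was ZYX (zyxin), a protein of focal adhesions and stress fibres. It had 13.9, 10.9 and 11.8 CPM at 24 h against 18.8, 19.4 and 19.5 CPM in DMSO. The groups did not overlap and the change, a description, was -0.66 ± 0.12 (edgeR, adjusted p = 0.0489). It passed the threshold in 8 of 15 other settings and was lower in all 15. In U2932 at 24 h ZYX was at -0.01 ± 0.18 (adjusted p = 0.988), and the difference between the responses was 0.62 ± 0.23 (adjusted p = 0.470). In U2932 edgeR called 0 of 37 at 12 h and 0 of 37 at 24 h.

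Across lines, 29 of 38 of these partners differed, 14 higher and 15 lower in U2932, beside 63.0% of all genes, with a median of 0.01. CNN3, the acidic calponin, had 1877 to 2566 counts per library in U2932 DMSO against 0 or 1 in Ly1 DMSO. MYL12A and MYL12B, regulatory light chains of nonmuscle myosin, had 173 ± 1.17 and 161 ± 4.49 CPM in U2932 against 67.7 ± 6.62 and 70.2 ± 6.75 CPM in Ly1. Their differences were 1.35 ± 0.09 (edgeR, adjusted p = 2.13e-10) and 1.20 ± 0.09 (adjusted p = 3.06e-09). DSTN (destrin), which severs actin filaments, differed by 1.38 ± 0.11 (adjusted p = 3.14e-09). CNN3, MYL12A, MYL12B and DSTN kept their calls in all 15 other settings.

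The genes most like TPM4 over the 9 Ly1 libraries, by Pearson's r of log2 CPM among 8980 protein-coding genes, were EXOC7 (r = 0.97), ARMCX3 (0.96) and TMEM159 (0.96). Their r over the 9 U2932 libraries was -0.17, 0.42 and 0.81. The genes most like SEPTIN8 in Ly1 were LDLRAD4 (r = 0.99), CYB561D1 (0.98) and CIITA (0.98), the master regulator of MHC class II genes, and in U2932 their r was 0.73, 0.40 and -0.0017. Between TPM4 and SEPTIN8 themselves r was 0.72 in U2932 and 0.65 in Ly1. These values are descriptions of libraries that share treatments and the deviation of replicate 3, and genes chosen as the closest of so many are high by that choice.

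Over the 28 promoters that RefSeq lists for the 10 genes, the CArG box, searched on both strands, was found in 1, the TPM4 window shown, beside 1.29% of 35116 promoters of the same length. The GC box GGGCGG was in 22 of 28, beside 45.0%, and at least 1 promoter of each of the 10 genes held it. The E-box CANNTG was in 15 of 28, beside 68.7%, and TATAAA in 1, of SEPTIN9, beside 11.5%. Windows of the same gene overlap in part, so these are not separate observations.

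Reads of near-identical copies limit some of these levels. Of the 50-base stretches of TPM4 transcripts (GENCODE 29), 7.14% occur in other genes, most of them in AC098614.1 (5.53%), and 3.25% of those of TPM3 and 2.92% of those of SEPTIN7, against 0% for TPM2 and SEPTIN8. Pseudogenes named after TPM3 held 2.17% as many counts as TPM3 itself, mainly TPM3P9 with 143 to 334 counts per library. Those named after SEPTIN7 held 2.37% as many as SEPTIN7, mainly SEPTIN7P2 with 139 to 326. The TPM4 pseudogene TPM4P1 was at 0 in every library. Counts of TPM3 and SEPTIN7 are uncertain by shares of this size. TPM4 had the largest share of stretches found in other genes of the 10 genes. The counts of AC098614.1, AC243960.2 and AC026462.1 were not examined.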

How the data were processed

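The mRNA of 18 samples was sequenced after library preparation with a NuGEN Universal Plus kit, per the labels' protocols. The deposited values are raw read counts per gene, and per the submitters' processing notes cutadapt, STAR and Picard were used with the hg38 build. No source used here gives tool versions, the counting tool, its use of strand or the annotation release. Of 60656 genes, 27386 had no count in any library. Total counts were 22549853 to 29386802, so 3 counts, the limit that a count of 0 allows, are 0.102 to 0.133 CPM, and intervals and limits cover counting error only.

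Counts were tested with edgeR 4.0.16 in R 4.3.3 (TMM factors, filterByExpr, robust quasi-likelihood fit, Benjamini-Hochberg adjustment over all genes tested, threshold 0.05). Each line was fitted alone on its 9 libraries (15138 genes in U2932, 14005 in Ly1), and line differences and differences of responses on all 18 (16191 genes). DESeq2 1.42.0, limma 3.58.1, other scalings and filters, the compared groups alone, the replicate block and left-out libraries were alternatives. The fit was checked on simulated counts with the same spread for every gene and no deviating replicate. That check therefore does not cover the deviation of the replicate 3 libraries. Replicate numbers were taken to pair libraries where every pair of same-numbered libraries deviated together with a correlation over 0.1: U2932 12 h and DMSO (0.381 to 0.666), 24 h and DMSO (0.336 to 0.564), 24 h and 12 h (0.375 to 0.649), and Ly1 12 h and DMSO (0.213 to 0.434) and 24 h and 12 h (0.100 to 0.331). In these comparisons, in that order, 6, 4, 5, 6 and 5 of 6 libraries were closest to their own number.

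The members and gene lists were chosen with earlier results of these data known. All 10 members are named, and of each list up to 4 called genes per comparison, by lowest adjusted p. ANLN in Ly1 was chosen after its values were seen. The genes most like TPM4 and SEPTIN8 are the 3 protein-coding genes with a mean of at least 5 CPM and the highest r. Promoters came from RefSeq (GRCh38.p14), with 28 entries for the 10 members.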

Additional observations from a re-analysis of the deposited data

How the results depend on the processing

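Of 1422 values of the members under alternative settings, 1361 kept their side of the threshold, 23 no longer passed it and 38 newly passed it. Called values reversed in 0 cases, while 97 of the 1361, not called in either fit, changed sign. The counts below are of members past the threshold, with the share of all genes past it in parentheses, and the cause of their shifts was not tested. Counts that use Ly1 libraries include TPM4 and SEPTIN8, chosen on those libraries, and are descriptions. In Ly1 at 12 h against DMSO the count of 0 became 2 with no filter on low counts (0.730%), 1 by DESeq2 (0.671%) and 3 without the replicate 3 libraries (1262 of 14024 genes). In Ly1 at 24 h against DMSO the count of 2 became 0 with library size only (0.00714%). It was 0 with a mean of at least 5 CPM (0.0106%), 0 with only the groups compared (0%) and 1 by limma voom (0.436%). Without the replicate 3 libraries it was 5 (46.2%, so near the share of the table). As each library was left out it was 0 to 2 (0% to 21.2%, the highest without 24 h replicate 3). In Ly1 at 24 h against 12 h the count of 0 became 1 with no filter (0.770%) and 1 by DESeq2 (0.0357%). It was 5 without the replicate 3 libraries (41.7%, also near that of the table). Leaving out each library gave 0 to 3 (0% to 19.5%, the highest without 24 h replicate 3). In U2932 the count of 0 at 24 h against DMSO became 2 with the replicate block (4.41%) and 3 without the replicate 3 libraries (9.01%), and that at 24 h against 12 h became 1 with each (0.997% and 6.19%). For the difference of responses the count of 0 became 2 without the replicate 3 libraries at 12 h (4.50%). At 24 h it became 1 by DESeq2 (0.346%), 1 with the replicate block (0.278%) and 3 without the replicate 3 libraries (26.6%). As each library was left out it was 0 to 1 (0% to 3.57%). Between lines in DMSO the count of 7 was 8 with the replicate block (65.4%), where SEPTIN6 passed (edgeR, adjusted p = 0.0458). It was 6 with DESeq2's size factors (62.8%), with no filter (33.2%) and with a mean of at least 5 CPM (65.2%). It was also 6 with only the groups compared (58.0%), and TPM1 did not pass in these settings. As each library was left out it was 6 to 7 (58.1% to 61.1%). Replicate numbers did not pair the libraries in that comparison (correlations -0.0785 to 0.0211, 1 of 6 libraries closest to its own number) or in Ly1 at 24 h against DMSO (0.0730 to 0.211, 4 of 6), where the block gave 3 (1.96%). Depth limits TPM2 in U2932, with 0 to 3 counts per library.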
